A study of Mus musculus with 3 samples.

Results

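The lungs of mice with 14-day PyMT metastases contained a small group of NK cells that held transcripts of Gzmc, the gene of granzyme C. These cells are described here against the other lung NK cells of the same library. Sorted cells were sequenced in 1 droplet library per time point, from naive mice and from mice that had received 100000 PyMT mammary tumor cells into a vein 6 h or 14 days earlier. All animals were wild-type females of 9 weeks, and the sort kept live CD45+, lineage-negative, NK1.1+ NKp46+ cells from lung and blood. Both tissues shared a library and were told apart by hashtag antibodies, and the tag named first in the methods, B0304, was read as lung. The animals of a library cannot be told apart in the files, so each group is 1 sample, no test was possible, and time point and library cannot be told apart either. Cells of the group were lung cells of the 14-day library with at least 1 Gzmc UMI, a unique molecular identifier that counts 1 captured transcript. Of 3575 such lung cells, 210 met the rule and 3365 did not, out of 21113 cells with 1 tissue tag in the series. The cells were chosen by their Gzmc count, so their Gzmc level is a description and not a result.

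Granzymes are serine proteases that NK cells and cytotoxic T cells store in granules with perforin and release onto a target cell. Granzyme A and granzyme B are the abundant members in resting and activated NK cells. Granzyme C belongs to a family of close relatives that in mice are known from lymphocytes under sustained cytokine stimulation, and it has been used as a mark of tissue-resident and type 1 innate lymphoid cell (ILC1) states. NK cells mature from less differentiated CD27+ cells, which make the chemokine lymphotactin (Xcl1), to CD11b+ KLRG1+ cells with large granules that circulate and line the vessels of the lung.

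Gzmc (ENSMUSG00000079186) lies on the minus strand of chromosome 14, from 56231441 to 56234656 of GRCm38. The transcription start of Gzmf lies 23.2 kb and that of Gzmb 27.6 kb from that of Gzmc, and those of Gzmn, Gzmg, Gzmd and Gzme follow within 114.03 kb. Relatives this close can share reads. Of the 805 stretches of 90 bases in the longest Gzmc transcript of GENCODE M21, 0 occurred in a transcript of another gene. Of its 845 stretches of 50 bases, 35 did (4.14%), in Gzmd, Gzme and Gzmg, and none of these lay in the last 400 bases, where this kind of library reads. The 250 bases before the RefSeq starts of Gzmc and Gzmb (GRCm38.p6) are shown because the genes are neighbours and their transcripts were distributed differently over the cells. The Gzmc window is chr14:56234658-56234907 and the Gzmb window is chr14:56262335-56262584, both read on the minus strand. Capitals mark matches to 5 motifs searched on both strands.
Gzmc: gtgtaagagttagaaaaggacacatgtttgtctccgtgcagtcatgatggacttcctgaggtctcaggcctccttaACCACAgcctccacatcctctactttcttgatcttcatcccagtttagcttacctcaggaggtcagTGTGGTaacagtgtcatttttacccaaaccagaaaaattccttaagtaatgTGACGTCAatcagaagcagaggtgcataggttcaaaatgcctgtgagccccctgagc
Gzmb: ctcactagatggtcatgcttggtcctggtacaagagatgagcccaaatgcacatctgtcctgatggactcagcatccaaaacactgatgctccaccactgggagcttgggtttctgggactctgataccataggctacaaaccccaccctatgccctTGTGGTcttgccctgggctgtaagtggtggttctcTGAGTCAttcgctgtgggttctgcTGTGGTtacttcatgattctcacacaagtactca
Near the Gzmc start stood the letters of a cyclic AMP response element (TGACGTCA), from 57 to 50 bases before it. RUNX letters (TGTGGT) stood at 174 to 169 and at 108 to 103 bases before the start. The Gzmb window held RUNX letters at 93 to 88 and 34 to 29 bases and an AP-1 match (TGANTCA) at 58 to 52 bases, and no cyclic AMP response element. Among the relatives, the windows of Gzmf and Gzmg held TGACGTCA and those of Gzmd, Gzme and Gzmn did not. Of 32851 windows of this length before RefSeq starts, 1.55% held TGACGTCA, 14.0% TGTGGT and 6.75% TGANTCA. The other motifs searched, a T-box motif (TCACACC, in 3.33% of windows) and a STAT motif (TTCNNNGAA, in 7.02%), were found in neither window. The motifs were chosen after the sequences had been seen, and a match is a description of letters only.

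Gzmc-positive cells made up 5.87% of lung NK cells at 14 days (95% CI 5.13 to 6.70, exact binomial). In naive lung 41 of 3676 cells held a Gzmc UMI, or 1.12% (95% CI 0.802 to 1.51), and in lung at 6 h 102 of 4680 did, or 2.18% (95% CI 1.78 to 2.64). In blood the share was 0.916% in naive mice, 2.44% at 6 h and 2.08% at 14 days (95% CI 1.51 to 2.79). The 14-day lung thus stood above the 5 other groups, whose intervals overlapped in part. Intervals cover counting error only, not the spread between mice. All cells were next thinned to 3000 UMIs, because a deep cell is more likely to show any transcript, and 38 of the 14-day lung cells were too shallow to enter. The thinned share was 3.39% (95% CI 2.82 to 4.04) in 14-day lung, 0.557% in naive lung and 1.06% in 6 h lung. In blood it was 0.513%, 0.99% and 0.776% for naive, 6 h and 14 days.

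**Figure D1:**
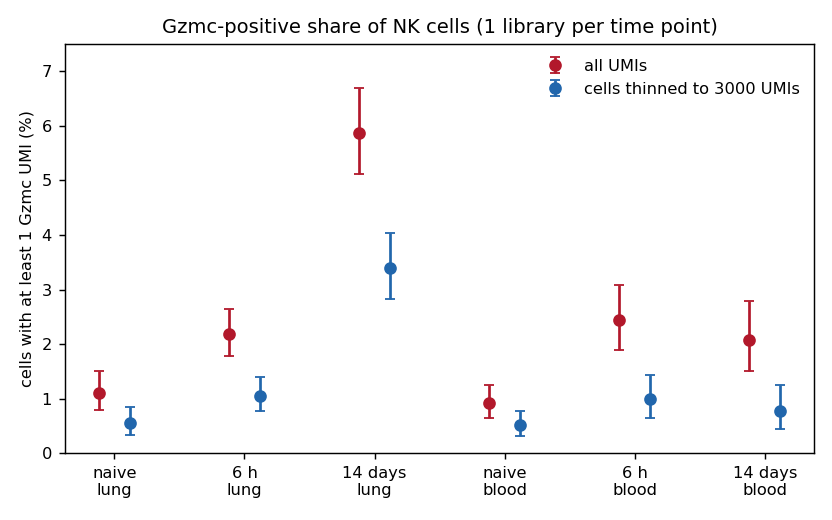
Percentage of cells with at least 1 Gzmc UMI (vertical axis) by tissue and time point, with all UMIs (red) and after thinning each cell to 3000 UMIs (blue). Points are the share in 1 library and bars the exact 95% binomial interval, and the 14-day lung lies highest on both, at 5.87% and 3.39%.

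The level of Gzmc differed more than the share of cells. Summed over all lung cells it was 2.81 CPM (counts of the gene per 1000000 UMIs of the same cells) in naive mice and 4.68 CPM at 6 h. At 14 days it was 74.1 CPM (95% CI 71.0 to 77.4, exact Poisson). Blood held 1.97, 5.93 and 6.08 CPM at naive, 6 h and 14 days. The 14-day lung level was therefore higher than that of naive lung by 4.72 on the log2 scale (95% CI 4.37 to 5.10), and higher than that of blood in the same library by 3.61 (95% CI 3.32 to 3.91). The difference between share and level lay in a few cells with many transcripts. Of the 210 Gzmc-positive cells, 96 held 1 UMI, 56 held 2 to 4 and 58 held 5 or more. The 20 cells with 20 or more UMIs carried 70.0% of all 2088 Gzmc UMIs, and the highest cell had 219. The intervals of the levels and of their ratios treat UMIs as independent, so they leave out this spread between cells. Cells with 5 or more UMIs made up 1.62% of 14-day lung cells (95% CI 1.23 to 2.09), while 2 such cells were found in naive lung, 3 in 6 h lung and 1, 2 and 5 in blood of the 3 libraries. The members at the edge of the rule were thus common, and the cells with 1 UMI are described separately below.

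Free RNA in the droplets can place a Gzmc UMI in a cell that does not make it. Barcodes with at most 100 UMIs held 51.3 CPM of Gzmc in the 14-day library, against 1.95 CPM in the naive and 6.93 CPM in the 6 h library. S100a8, a neutrophil gene with 45 UMIs in those barcodes and 3 in all tagged cells, put free RNA at 0.554% of the counts of a 14-day cell. This was the smallest value among the markers tried, of which Ms4a1 gave 1.80%, and it leaves out the counting error of the 3 UMIs. At that value of 0.554%, 0.223% of lung cells would hold a Gzmc UMI from free RNA, against 5.87% observed. Blood cells of the same library, exposed to the same fluid, held 2.08%.

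Gzmc-positive cells were deep cells. Their median was 11107.5 UMIs and 3098 genes, against 6871 UMIs and 2512 genes in Gzmc-negative cells. The medians were 8412.5, 11427.5 and 14539.5 UMIs in cells with 1, 2 to 4 and 5 or more Gzmc UMIs. Lung cells were split by depth into 4 groups of 893 or 894 cells. Of the deepest 894 cells 15.1% were Gzmc-positive, against 2.46%, 2.02% and 3.91% in the groups from the shallowest up. The Gzmc level, which does not grow with depth by itself, was 6.13, 5.89, 17.4 and 167 CPM from the shallowest to the deepest group. The 134 barcodes of the 14-day library with both tissue tags, which mark droplets with more than 1 cell, had a median of 15333 UMIs. Of these, 6.72% held at least 1 Gzmc UMI and 0 held 5 or more. The 0 allows a share of up to 2.24% by the floor of 3 counts and up to 2.72% by the exact binomial interval. Droplets with several cells of the same tissue were not removed, and their part in the result was not tested.

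**Figure D2:**
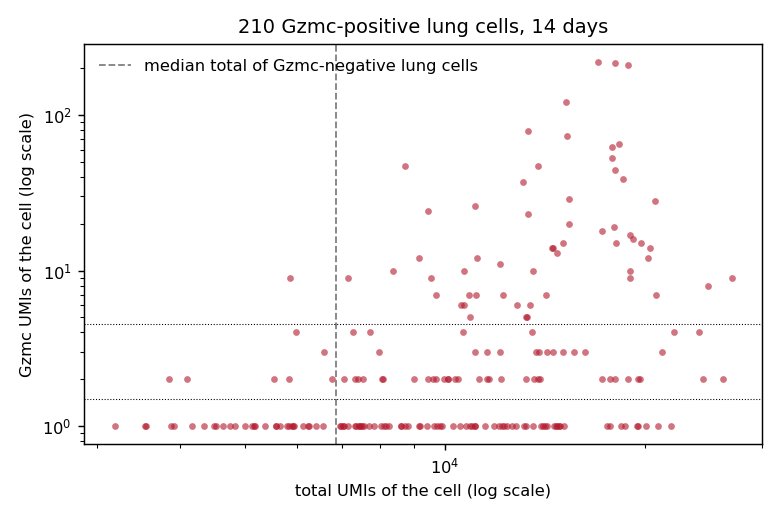
Gzmc UMIs (vertical axis, log scale) against total UMIs (horizontal axis, log scale) of the 210 Gzmc-positive lung cells at 14 days, 1 point per cell. Dotted lines separate cells with 1, 2 to 4 and 5 or more Gzmc UMIs, and most cells with 5 or more lie to the right of the dashed line, the median of 6871 UMIs of Gzmc-negative cells.

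The cells carried the genes of NK cells. Transcripts of Ncr1, which encodes the sorting marker NKp46, were found in 95.2% of Gzmc-positive and 93.3% of Gzmc-negative cells. Klrb1c, which encodes NK1.1, was found in 97.6% and 98.2%, and Eomes, a T-box factor of NK cells, in 69.5% and 68.3%. Their levels were lower, with 487 against 682 CPM for Ncr1, 746 against 1082 for Klrb1c and 148 against 230 for Eomes. Of 8 NK identity genes, 4 were lower by at least 0.5 on the log2 scale (50%, against 16.6% of all genes) and 1 (12.5%, against 4.85%), Cd160, was higher (62.6 against 32.3 CPM). The list's median was -0.50, and it was -0.27 with Gzmc-negative cells weighted by depth and -0.16 in cells with exactly 1 Gzmc UMI. It was -0.39 after thinning, which left 120 Gzmc-positive cells. With ribosomal protein and mitochondrial genes left out of the totals it was -0.36, and 1 gene in place of 4 was lower. Markers of other cells differed between lists. The 6 B cell markers summed to 3.64 CPM in Gzmc-positive and 0.895 CPM in Gzmc-negative cells, led by Ebf1 in the former, where 3 were at 0, and at least 1 was found in 2.86% and 0.624% of cells. The 5 mast cell and basophil markers were at 0 and 0.895 CPM. The 7 epithelial and tumor cell markers summed to 4.04 and 1.79 CPM, and in Gzmc-positive cells 6 were at 0 and all counts came from Epcam. At least 1 of these 7 was found in 4.76% of Gzmc-positive cells, in 13.8% of those with 5 or more Gzmc UMIs and in 1.25% of Gzmc-negative cells. Endothelial markers summed to 101 and 85.6 CPM, all from Pecam1 in Gzmc-positive cells, where the other 5 were at 0. Myeloid markers summed to 107 and 141 CPM, of which Cst3 made up 101 CPM in Gzmc-positive cells, where 4 were at 0. The part of these cells or transcripts in the result was not tested. Summed T cell markers stood at 709 CPM in Gzmc-positive and 627 in Gzmc-negative cells, led by Trbc1 at 359 and 334 CPM, and Cd8a was at 0 in both. Over all cells of a tissue and library these markers summed to between 537 CPM in 6 h lung and 643 CPM in 14-day blood. Genes of the CD3 complex were at 27.9 against 14.8 CPM for Cd3d and 37.6 against 15.2 CPM for Cd3g. These were found in 7.14% and 8.10% of Gzmc-positive cells against 3.95% and 3.60% of the rest, and the part of such cells in the result was not tested.

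Across all genes, the summed counts of the 210 cells (2474244 UMIs) were compared with those of the 3365 Gzmc-negative cells (25702936 UMIs). Ratios are given as log2, Gzmc-positive over Gzmc-negative, with exact intervals that cover counting error only, and genes with at least 20 CPM over all 14-day lung cells were compared. Of 6085 such genes, 295 were higher by at least 0.5 (4.85%) and 1012 lower by at least 0.5 (16.6%), and the median was -0.18. This shift went with ribosomal protein genes, which took 29.3% of the counts of Gzmc-positive and 21.96% of those of Gzmc-negative cells. In cells with 1, 2 to 4 and 5 or more Gzmc UMIs they took 26.5%, 30.4% and 31.5%. With ribosomal protein and mitochondrial genes left out of the totals, every other ratio rose by 0.15, the median became -0.03, and 630 genes were higher and 605 lower of 6761. The excess of lower genes thus depended on the scaling, and single ratios below should be read against the median.

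Of the 12 genes with the largest ratios, Dscam, a cell adhesion molecule known from neurons, was at 210 CPM in Gzmc-positive and 39.9 CPM in Gzmc-negative cells, a log2 ratio of 2.39 (95% CI 2.24 to 2.55), and was found in 28.6% and 5.02% of cells. Lilrb4a, an inhibitory receptor with tyrosine-based motifs, was at 105 and 20.7 CPM. Xcl1, the chemokine that attracts cross-presenting dendritic cells, was at 2472 and 707 CPM, a log2 ratio of 1.81 (95% CI 1.76 to 1.85). It was found in 81.0% and 45.7% of cells, and in 71.4% and 35.2% once cells were thinned to 3000 UMIs. Jaml, a junctional adhesion molecule of leukocytes, reached 2.03, Thy1, a glycoprotein of T cells and less differentiated NK cells, 1.73, and the pyrophosphatase gene Ppa1 1.73. Ltb, which encodes lymphotoxin beta, was at 344 and 111 CPM, and Inpp4b, a phosphoinositide phosphatase, at 453 and 150 CPM. The remaining members of this group were Spp1 (1.69), Cxcl10 (1.64), Ms4a4c (1.55) and Cd74 (2.18). Ms4a4c was at 18.6 CPM in Gzmc-negative cells and passed the minimum of 20 CPM only through the Gzmc-positive cells, as did 15 of the 295 higher genes. For the other 3, 1 cell carried a large part of the counts, namely 49.2% for Cd74, 26.5% for Cxcl10 and 21.6% for Spp1. The ratio of Cd74 turned to -1.48 without the 5% deepest cells and to -1.17 without cells that held a marker of ILC1. Depth moved with these ratios. With Gzmc-negative cells weighted to the depths of the Gzmc-positive ones, the ratio of Dscam was 1.13, of Jaml 1.16, of Thy1 1.08, of Ltb 0.97, of Inpp4b 0.87, of Ppa1 1.19, of Xcl1 1.38 and of Lilrb4a 1.77, while Spp1, Cxcl10, Ms4a4c and Cd74 lay between 0.78 and 1.06.

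Of the 12 genes with the smallest ratios, Klf2, a transcription factor that maintains trafficking receptors, was at 119 CPM in Gzmc-positive and 487 CPM in Gzmc-negative cells, a log2 ratio of -2.03 (95% CI -2.20 to -1.86). It was found in 36.2% and 70.1% of cells although the former were deeper. Cma1, a chymase gene of the same chromosome, was at 39.6 and 170 CPM, and Klrg1, an inhibitory receptor of terminally mature NK cells, at 31.1 and 114 CPM. Cmklr1, the chemerin receptor, was at 3.64 and 27.6 CPM, a log2 ratio of -2.92 on 9 UMIs in the Gzmc-positive cells. Cdc20b was at -2.22, Hes1, a target of Notch, at -2.05, Rasgrp2, which activates the small GTPase Rap1 for integrin function, at -2.04, Rac3 at -1.95 and the potassium channel gene Kcnj8 at -1.93. Arhgap6 and the phosphodiesterase gene Pde8a were at -1.82 and -1.71. Hbb-bs, a hemoglobin gene, had 1428 UMIs in 0.0594% of the Gzmc-negative cells and 0 in the Gzmc-positive ones, so its place rests on very few cells.

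Among the granule genes, Gzmb, found in 81.0% of Gzmc-positive and 81.2% of Gzmc-negative cells, was at 1375 and 1208 CPM, a log2 ratio of 0.19 (95% CI 0.13 to 0.24). The highest cell held 10.8% of the Gzmb of Gzmc-positive cells, without which the level was 1231 CPM, and the median of single cells was 551 against 691 CPM. Gzma was at 4669 and 9894 CPM, a log2 ratio of -1.08 (95% CI -1.11 to -1.06). Of the other relatives in the cluster, Gzmd, Gzmg and Gzmn had 0 UMIs in all 14-day lung cells, Gzme had 1 and Gzmf 4, all in Gzmc-negative cells. Perforin (Prf1) was at 506 and 818 CPM and Nkg7, a granule membrane protein, at 1393 and 2185 CPM. The protease inhibitor gene Serpinb9b was at 60.6 and 120 CPM. Fasl, the ligand of the death receptor Fas, was at 150 and 226 CPM, while Tnfsf10, which encodes the death ligand TRAIL, was higher at 72.7 and 31.6 CPM (log2 ratio 1.21, 95% CI 0.96 to 1.44). Of 19 genes for granule proteins, their inhibitors and death ligands, 1 was higher (5.26%, near the 4.85% of all genes) and 7 lower by at least 0.5 (36.8%, against 16.6% of all genes), and their median was -0.38 against -0.18 over all genes. Serglycin (Srgn), cathepsin W (Ctsw) and cystatin F (Cst7), which pack, process or restrain granule proteases, lay between 0.08 and 0.20.

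Genes of NK cell maturation differed between the cells. Of 15 genes of mature NK cells at 20 CPM or more, 13 were lower (86.7%, against 16.6% of all genes) and 0 higher (against 4.85%), and the median ratio was -1.16 against -0.18 over all genes. Itgam, which encodes CD11b, was at 62.2 and 193 CPM, and Zeb2, a repressor needed for terminal maturation, at 297 and 663 CPM. Cx3cr1, the fractalkine receptor, was at 23.8 and 72.3 CPM, and S1pr5, which guides egress from tissue, at 24.2 and 70.5 CPM. Itgb2, the beta chain of LFA-1, was at 161 and 353 CPM. Summed over all lung cells, the list was at 19170 CPM in naive mice, 19005 CPM at 6 h and 14477 CPM at 14 days, and at 21841 CPM in 14-day blood. Gzma alone made up 59.0% to 65.2% of these sums, and without it they were 7855, 7386, 5041 and 7863 CPM. The 2 that were not lower by 0.5 were Gzmb and Tbx21, which encodes T-bet (207 and 273 CPM). Of 12 genes of less differentiated NK cells, 6 were higher (50%, against 4.85% of all genes) and 1 lower (8.33%, below the 16.6% of all genes), with a median of 0.52. Beside Xcl1, Thy1 and Ltb these were Il7r (1.15), Emb (0.78) and Kit (0.71). Cd27 itself was at 62.6 and 53.6 CPM (log2 ratio 0.23, 95% CI -0.02 to 0.47), Tcf7 at 71.1 and 62.8 CPM, and the chemokine receptor gene Cxcr4 was lower, at 105 and 184 CPM. When Gzmc-negative cells were weighted to the depths of the Gzmc-positive ones, the median of this list was 0.10 and that of the mature genes -0.84.

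**Figure D3:**
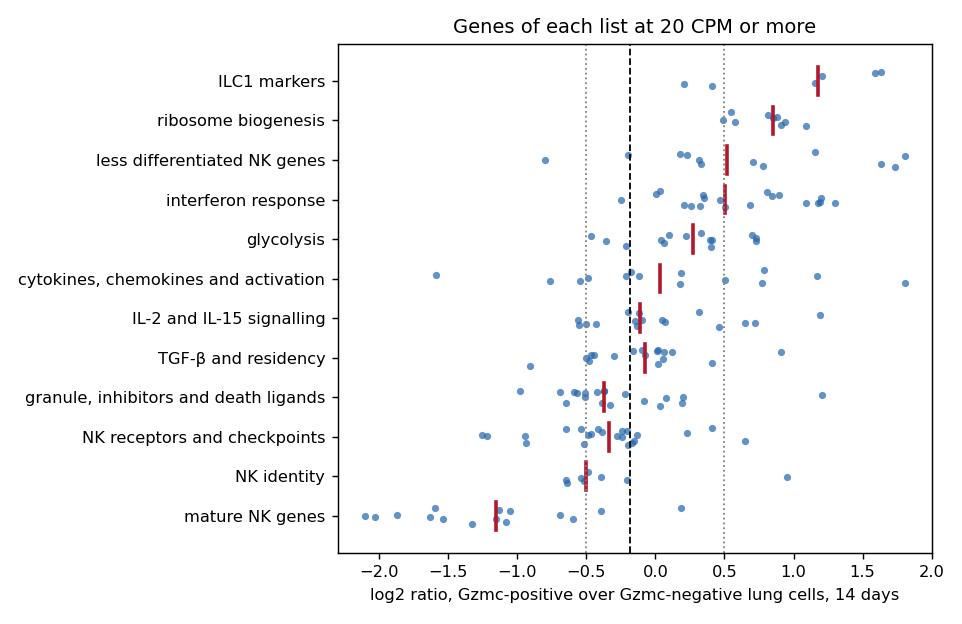
Log2 ratio of summed CPM, Gzmc-positive over Gzmc-negative lung cells at 14 days (horizontal axis), for the genes of 12 lists, 1 point per gene. Red bars are list medians, the dashed line the median of all 6085 genes (-0.18) and dotted lines the limits of 0.5 and -0.5, and the mature NK genes lie lowest and the ILC1 markers highest.

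Several genes that set ILC1 apart from NK cells were higher. Of 6 measured genes of that list, 4 were higher (66.7%, against 4.85% of all genes) and 0 lower (against 16.6%), with a median of 1.18. With Gzmc-negative cells weighted by depth it was 0.64 over the same 6 genes, and 0.71 when the minimum of 20 CPM was applied to the weighted counts. These were Inpp4b, Ltb, Tnfsf10 and Il7r, and Itga1, which encodes CD49a, was at 91.3 and 68.8 CPM (log2 ratio 0.41). The list held 12 genes, and values are given here for 4 of those below 20 CPM. Its members Zfp683, Il21r and Gpr183 are not reported singly. Tmem176a was at 41.6 and 7.94 CPM and Tmem176b at 51.7 and 11.2 CPM, a related pair of ion channels of innate lymphoid cells. Cxcr6, the receptor for the chemokine CXCL16, was at 16.2 and 3.62 CPM, and Cd200r1, an inhibitory receptor, at 23 and 6.07 CPM. Over all lung cells the whole list summed to 152 CPM in naive mice, 187 CPM at 6 h and 542 CPM at 14 days, and in blood to 139, 183 and 243 CPM. Few cells carried its rarer members. Tmem176a, Tmem176b, Il7r or Cxcr6 was found in 20.5% of Gzmc-positive cells (95% CI 15.2 to 26.6) and 7.67% of Gzmc-negative cells. Among Gzmc-positive cells with 5 or more Gzmc UMIs the share was 37.9% (95% CI 25.5 to 51.6). These shares were not compared at equal depth, and the Gzmc-positive cells were deeper. Among the 167 Gzmc-positive cells without any of these 4 genes, the ratios against the 3107 Gzmc-negative cells without them were 1.88 for Xcl1, 1.47 for Inpp4b, 1.64 for Thy1 and -1.73 for Klf2. The median of the ILC1 list was still 0.75 in that comparison, so leaving out cells with these 4 genes did not set the list aside. Gata3, a transcription factor of several lymphocyte lineages, was at 80.8 and 76.3 CPM.

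Of 17 measured genes of TGF-β signaling and tissue residence, 1 was higher (5.88%) and 2 were lower (11.8%), shares near the 4.85% and 16.6% of all genes. The median was -0.08, which turned to 0.07 when ribosomal protein and mitochondrial genes left the totals and to 0.63 without cells with a T cell marker, a setting that left 12 Gzmc-positive cells. Pmepa1, a target and inhibitor of TGF-β signaling, was at 152 and 163 CPM (log2 ratio -0.10, 95% CI -0.25 to 0.06). Smad7, another inhibitor induced by the pathway, was at 222 and 220 CPM, and the receptor gene Tgfbr2 at 148 and 156 CPM. Smad3, which carries the signal to the nucleus, was lower at 108 and 203 CPM, and Cd69, an activation and retention marker, higher at 135 and 71.9 CPM. By cells with a transcript the picture was different. Itga1 or Pmepa1 was found in 73.3% of Gzmc-positive cells (95% CI 66.8 to 79.2) and in 47.0% of Gzmc-negative cells. Of the 1734 lung cells with either, 8.88% were Gzmc-positive, and of the 1841 with neither, 3.04% were. After thinning, Pmepa1 was found in 29.5% and 27.0% and Itga1 in 22.4% and 13.3% of cells, so the Pmepa1 difference was mostly gone at equal depth. Across all lung cells Pmepa1 was at 19.7 CPM in naive mice, 35.3 CPM at 6 h and 162 CPM at 14 days, and at 2.24, 8.38 and 4.43 CPM in blood. Pmepa1 was therefore high in both Gzmc-positive and Gzmc-negative cells of the 14-day lung. Within the cells with Itga1 or Pmepa1, the ratio was 1.54 for Xcl1, 0.97 for Inpp4b, -2.11 for Klf2 and -0.79 for Gzma. Within the cells with neither, the same ratios were 1.95, 2.83, -1.07 and -0.74, on 56 Gzmc-positive cells.

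Of 14 measured cytokine, chemokine and activation genes, 5 were higher (35.7%, against 4.85% of all genes) and 3 lower (21.4%, near the 16.6% of all genes), with a median of 0.03. That median turned to -0.19 without cells with a T cell marker, which left 12 Gzmc-positive cells. It also turned to -0.17 in cells with exactly 1 Gzmc UMI and to -0.02 with the lung tag at 99% or more. Crtam, a surface receptor induced by activation, was at 85.7 and 38.2 CPM, Tnfrsf9, which encodes the costimulatory receptor 4-1BB, at 293 and 172 CPM, and Tnfrsf18, which encodes GITR, at 170 and 98.2 CPM. Ccl5 was at 4274 and 12846 CPM, a log2 ratio of -1.59 (95% CI -1.62 to -1.56), and Ccl4 at 682 and 1160 CPM. Both encode chemokines of cytotoxic lymphocytes. Ifng was at 106 and 115 CPM (log2 ratio -0.12, 95% CI -0.31 to 0.07), and Tnf, below 20 CPM over all lung cells, at 23 and 6.73 CPM. Il2ra, the high-affinity chain of the IL-2 receptor, was at 34.4 and 4.82 CPM and was found in 16.2% and 2.02% of cells, while the shared chains Il2rb and Il2rg were at -0.13 and 0.32. Of 16 genes of IL-2 and IL-15 signaling, 3 were higher (18.8%, against 4.85% of all genes), namely Myc (84.5 and 37.0 CPM), Cish (47.7 and 28.9 CPM) and Batf (52.5 and 33.5 CPM). Another 3 (also 18.8%, near the 16.6% of all genes) were lower, the kinase genes Jak1 and Pim1 and the signal transducer Stat5b, and the median was -0.11, which turned to 0.04 without ribosomal protein and mitochondrial genes in the totals.

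Of 22 measured NK cell receptors and checkpoints, 1 was higher (4.55%), 7 were lower (31.8%) and 14 lay between, against 4.85% higher and 16.6% lower of all genes, and the median was -0.34, against -0.18. The Ly49 receptor genes Klra9 (227 and 544 CPM), Klra8 (478 and 914 CPM) and Klra4 (711 and 1117 CPM) were among the 7, and so were Klrc2 and the ectonucleotidase gene Entpd1 (59.0 and 137 CPM). The other ectonucleotidase, Nt5e, which encodes CD73 and makes adenosine, was the 1 higher gene, at 48.9 and 31.1 CPM. Klra genes are close relatives, and reads could be split between them. Of the checkpoint genes, Tigit was at 35.6 and 42.2 CPM, and Ctla4, below 20 CPM over all lung cells, at 35.6 and 11.5 CPM. Lag3, also below it, was at 14.1 and 4.75 CPM. Most UMIs of a gene can come from 1 cell at such levels, and for Ctla4 the highest cell held 9.09%.

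Of 9 measured genes of ribosome biogenesis, 8 were higher (88.9%, against 4.85% of all genes) and 0 lower (against 16.6%), with a median of 0.85. In the 96 cells with 1 Gzmc UMI the median was 0.34, and 0.17 with Gzmc-negative cells weighted to their depths. Npm1 and Ncl, abundant nucleolar proteins, were at 1034 and 561 CPM and at 744 and 422 CPM. Dkc1, the pseudouridine synthase of small nucleolar RNAs, was at 87.7 and 41.1 CPM, and Fbl, the nucleolar methyltransferase, at 153 and 79.5 CPM. Of 14 glycolysis genes 3 were higher, Gapdh, Pgk1 and Ldha, with ratios of 0.70, 0.73 and 0.72, a share of 21.4% against 4.85% of all genes. The list had 0 lower genes (against 16.6%) and a median of 0.27. That median was 0.15 without the 5% deepest cells. It turned to -0.08 without cells with a T cell marker, a setting that left 12 Gzmc-positive cells. Of 8 measured cell cycle genes 2 were higher, the tubulin genes Tubb5 (180 and 127 CPM) and Tuba1b (115 and 79.8 CPM), and 1 was lower, with a median of 0.08. These were 25% and 12.5% of the list, against 4.85% and 16.6% of all genes. The cell cycle median was 0.47 after thinning to 3000 UMIs, where 120 cells still held a Gzmc UMI. It was 0.34 without ribosomal protein and mitochondrial genes in the totals and -0.02 with Gzmc-negative cells weighted by depth. Mki67, a mark of dividing cells, had 6 UMIs, or 2.42 CPM, in Gzmc-positive and 7.82 CPM in Gzmc-negative cells, and the lower gene was Stmn1 at 19 and 48.8 CPM. Of 19 genes induced by interferon, 10 were higher (52.6%, against 4.85% of all genes) and 0 lower (against 16.6%), with a median of 0.50, which was 0.36 with Gzmc-negative cells weighted by depth. Bst2, which tethers virions, was at 185 and 81.0 CPM, Isg20, an exonuclease, at 102 and 44.3 CPM, and Ly6e at 716 and 409 CPM. Stress genes of tissue dissociation had a median of -0.40, with Hspa8 higher (1143 and 789 CPM) and Fos lower (53.3 and 79.3 CPM). That median turned to 0.09 after thinning to 3000 UMIs, with the same 120 Gzmc-positive cells. It turned to 0.04 without cells with a T cell marker and was -0.06 among the deepest 894 cells.

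Many of the differences, but not all, were larger in cells with more Gzmc UMIs. These 3 classes were chosen after the counts had been seen, and the median depth rose with them, as given above. For Klf2 the level was 487 CPM in cells with 0 Gzmc UMIs, 254 with 1, 65.3 with 2 to 4 and 17.4 with 5 or more. For Gzma it was 9894, 7860, 3679 and 2041 CPM, and for Ccl5 12846, 8565, 2339 and 1222 CPM. Itgam was at 193, 118, 36.3 and 23.2 CPM, and Cma1 was at 105, 1.45 and 0 CPM in the 3 positive classes. In the other direction, Inpp4b was at 150, 253, 356 and 745 CPM, Dscam at 39.9, 116, 192 and 325 CPM, and Npm1 at 561, 733, 1095 and 1309 CPM. Xcl1, at 707, 1568, 3197 and 2861 CPM, was higher in every positive class but had no further step from 2 to 4 to 5 or more UMIs. Summed Gzmb was at 1208, 1530, 1402 and 1186 CPM, but 1 cell held 23.9%, 38.1% and 20.3% of it in the 3 positive classes, and without that cell the levels were 1181, 883 and 974 CPM. The median of single cells was 691, 770, 499.7 and 329 CPM. Pmepa1 had no order, at 157, 181 and 124 CPM against 163 CPM. Cxcl10 was at 171, 141 and 137 CPM in the 3 positive classes, but 1 cell in each held 62.7%, 40.2% and 52.5% of it, and without that cell the levels were 64.7, 85.5 and 66.6 CPM, with no order. Pde8a, on 6, 7 and 10 UMIs, had ratios of -2.23 (95% CI -3.68 to -1.10), -1.58 (95% CI -2.90 to -0.53) and -1.39 (95% CI -2.45 to -0.50), which overlap. The median of the interferon genes was 0.53, 0.63 and 0.58. The medians of the mature genes were -0.52, -1.61 and -2.01 and those of the ILC1 markers 0.64, 0.85 and 1.78. Of the 6085 genes, 163, 427 and 588 were higher and 711, 1552 and 1858 lower by at least 0.5 in the 3 classes, with the fewest cells, and hence the widest error, in the upper 2. In an alternative chosen after seeing the data, Gzmc-negative cells were weighted to the depths of each class. The ratios in the 3 classes were then -0.63, -2.32 and -4.00 for Klf2 and -0.10, -1.02 and -1.69 for Gzma. They were 0.26, 0.53 and 1.37 for Inpp4b, 0.62, 1.02 and 1.43 for Dscam and 0.17, 0.62 and 0.77 for Npm1. The medians were -0.27, -1.34 and -1.55 for the mature genes, 0.23, 0.51 and 1.06 for the ILC1 markers and 0.29, 0.51 and 0.28 for the interferon genes. Those of the less differentiated NK genes, 0.13, 0.63 and 0.67 before weighting, were -0.06, 0.26 and 0.09. Of the 6085 genes 108, 319 and 444 genes were higher and 608, 1277 and 1537 lower. The order of the classes was thus kept for these 5 genes, the mature genes and the ILC1 markers, with smaller ratios. Ccl5 (-0.33, -2.04 and -2.73) and Itgam (-0.43, -1.94 and -2.37) kept it too. Klf2, Inpp4b and Dscam had been named for their extreme ratios in these same cells. The order was not kept for the less differentiated NK genes. Xcl1, at 0.88, 1.75 and 1.44 after weighting, and the interferon genes had no such order before or after weighting.

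**Figure D4:**
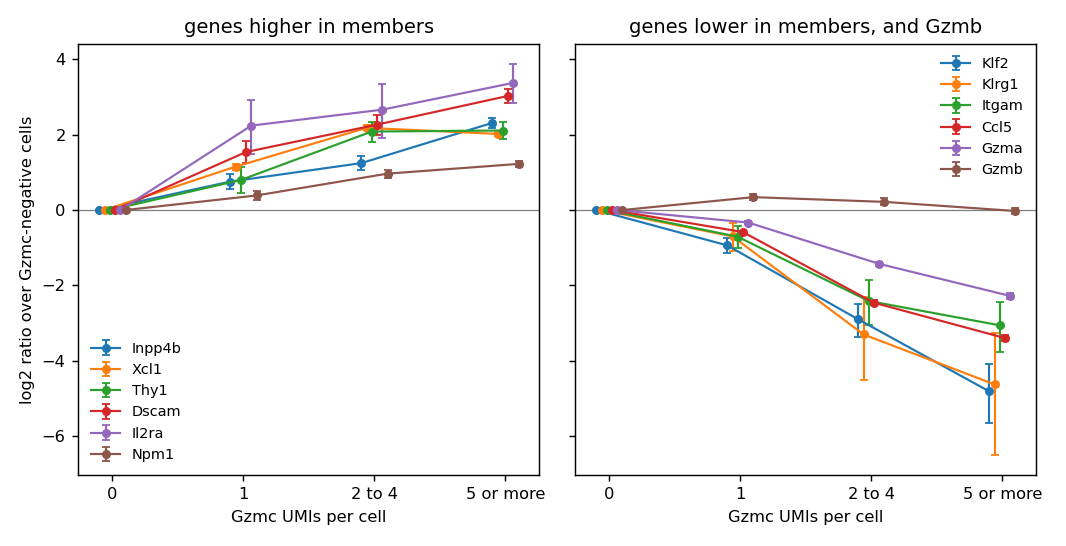
Log2 ratio of summed CPM over Gzmc-negative cells (vertical axis) by number of Gzmc UMIs per cell (horizontal axis) for 12 genes in 14-day lung. Points are sums over 96, 56 and 58 cells and bars the exact 95% interval of counting error. Klf2, Ccl5 and Gzma lie lower in each next class, Inpp4b and Npm1 higher, and the sum of Gzmb stays between -0.03 and 0.34, with 1 cell holding 20.3% to 38.1% of it.

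In the other groups the same comparison rests on fewer cells. The ratios that follow compare Gzmc-positive with Gzmc-negative cells within 1 tissue and library, on 41 positive cells in naive lung, 102 in 6 h lung and 43 in 14-day blood. Xcl1 was higher in each, at 1.54, 0.93 and 1.72, beside 1.81 in 14-day lung. Tnfsf10 was at 2.31, 1.00 and 1.98, with intervals above 0 in each. Lilrb4a was at 1.25, 1.81 and 2.38, but its interval in naive lung, on 5 UMIs, held 0, with a lower 95% bound of -0.39. Inpp4b was at 0.61, 2.12 and 2.73, and in naive lung, on 9 UMIs, its interval held 0 too (95% CI -0.53 to 1.55). Il2ra was at 2.57, 2.05 and 1.83, the last on 2 UMIs in blood (95% CI -1.30 to 3.83). Klf2 was lower by less than in 14-day lung, at -0.45, -0.63 and -0.77, and the same held for Itgam, at -0.96, -0.48 and -0.24, the last with an interval that held 0 (95% CI -0.56 to 0.07). Gzma was at -0.17, -0.47 and -0.22 and Ccl5 at -0.21, -0.22 and -0.23, against -1.08 and -1.59 in 14-day lung. Npm1 was at 0.67, 0.65 and 0.25. Dscam was at 1.55 in 6 h lung, and its 2 UMIs in the positive cells of naive lung and 0 in those of 14-day blood were too few to show a difference. At 6 h Hes1 was at 0.46 (95% CI 0.09 to 0.82) and Cmklr1 at 0.36 (95% CI -0.15 to 0.84), against -2.05 and -2.92 in 14-day lung, and Ltb was at 0.05 in naive lung (95% CI -1.40 to 1.18), 1.52 in 6 h lung and 2.24 in 14-day blood. Most positive cells of these groups held a single UMI (35 of 41 in naive lung and 33 of 43 in 14-day blood), and the values for cells with 1 UMI in 14-day lung are the nearest in count. The difference between the groups was not tested.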

How the data were processed

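Sorted NK cells of lung and blood were profiled in 3 droplet libraries. The authors deposited UMI counts per gene and hashtag (unit count) for all barcodes, not normalized, so the calling of cells had not been applied. Per the file headers these were made with Cell Ranger 7.1.0, while the labels give 7.0.1 and the submitters' processing notes list Seurat 5.0.

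A barcode entered with 800 to 5000 genes found and no more than 6% of mitochondrial counts, and lung cells had at least 90% of their tag counts from B0304. Cells with both tags were left out, and no doublet caller was run. Of the cell barcodes, 27, 23 and 18 of the naive, 6 h and 14-day libraries occurred in another library. Total UMIs were 28177180 in 14-day lung, 23468585 in naive lung, 35922737 in 6 h lung and 29979116, 22077755 and 16936897 in blood of naive mice, at 6 h and at 14 days.

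UMIs were summed over Gzmc-positive and Gzmc-negative cells and scaled to CPM. Levels have exact Poisson intervals, shares exact Clopper-Pearson intervals and ratios exact conditional binomial intervals, all at 95% and for counting error between UMIs only, which leaves out the spread between cells and mice. A gene at 0 was set to 3 counts in a ratio. Genes named are the 12 largest and 12 smallest ratios among genes with at least 20 CPM, and the genes of lists. The members and lists were chosen with earlier results of these data known. On Poisson counts simulated for this comparison, 96.1% of intervals over 6086 genes held the true ratio. The simulation had no spread between cells, so it checks the formula only and not the cover of the intervals in real cells. Gene positions come from GENCODE M21 (GRCm38), which holds 25461 of the 25906 gene IDs and is not the release the methods name. Promoters come from RefSeq. Alternatives changed the filters on cells and genes, the tags, the Gzmc minimum, the depth, the totals and the free RNA. Thinning also changed the members: medians and gene counts after it compare the 120 cells that still held a Gzmc UMI with the others. Percentages of cells with other transcripts after thinning keep the 210 cells. Python 3.11.15, numpy 2.4.6, scipy 1.17.1 and pandas were used.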

Additional observations from a re-analysis of the deposited data

Results flagged for a closer look

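Cells with both tissue tags, which entered no comparison of Gzmc-positive with Gzmc-negative cells, also held Gzmc. At 14 days 6.72% of them (9 of 134, 95% CI 3.12 to 12.4) had at least 1 UMI, against 1.46% in the naive library (95% CI 0.476 to 3.38) and 3.16% in the 6 h library (95% CI 1.04 to 7.23), and the intervals overlap. After thinning to 3000 UMIs the shares were 2.24% at 14 days, 0.606% in the naive and 1.27% in the 6 h library, with overlapping intervals.

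Among the named and list genes, 4 had a ratio of Gzmc-positive to Gzmc-negative cells that was at least 0.5 in size in lung and in blood of the 14-day library, with opposite signs and with intervals that excluded 0 in both, and the difference was not tested. Ccl4 was at -0.77 in lung and 0.92 in blood, Fasl at -0.59 in lung and 0.50 in blood, Emb at 0.78 in lung and -4.08 in blood, and Spp1 at 1.69 in lung and -2.51 in blood. Blood had 43 Gzmc-positive cells, with 1 UMI of Emb and 2 of Spp1.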

How the results depend on the processing

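The share of Gzmc-positive cells in 14-day lung was 6.86% with the lung tag at 99% or more, 3.19% with at least 2 Gzmc UMIs and 3.39% after thinning. It was 4.74% without the 5% deepest cells, 5.10% without cells with an ILC1 marker and 3.76% without cells with a T cell marker, which left 12 positive cells of 319 because Trbc1 is found in most NK cells. Genes higher and lower by at least 0.5 numbered 295 and 1012, and 453 and 1551 with at least 2 UMIs, 630 and 605 without ribosomal protein and mitochondrial genes in the totals, 1165 and 1845 without cells with a T cell marker, 2217 and 2700 without a filter on low genes and 91 and 284 at 100 CPM or more. Genes higher and lower numbered 507 and 1505 after thinning, 183 and 706 with Gzmc-negative cells weighted by depth and 158 and 713 in cells with exactly 1 UMI. In the last of these the minimum of 20 CPM was applied to the cells compared and left 6095 genes (163 and 711 of the 6085 genes of the main comparison). That last setting, each cell weighted equally, leaving out shared barcodes and taking only the 894 deepest cells were chosen after seeing the data. Of 378 ratios of the 24 genes with the largest and smallest ratios under an alternative, 3 had the other sign. Cd74 was at -1.48 without the 5% deepest cells and at -1.17 without cells with an ILC1 marker. Kcnj8 was at 0.12 without cells with a T cell marker. Another 137 ratios kept the sign but lay outside the interval of the main ratio, and 238 lay within it. Without cells with a T cell marker, Dscam moved from 2.39 to 5.83 and Jaml from 2.03 to 5.69, on 12 positive cells. Weighting by depth brought Dscam to 1.13, Xcl1 to 1.38 and Inpp4b to 0.87, and Klf2 to -1.49. No paired analysis was possible because each time point had 1 library. With 58 cells at 5 or more UMIs, genes below 20 CPM rest on few transcripts.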
